A study of Mus musculus with 6 samples.

Results

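Phase II conjugation was described in the hepatic mRNA of 6 mice through 3 families of cytosolic and microsomal enzymes. Members were taken by gene symbol, as the Ugt1, Ugt2 and Ugt3 genes, the numbered Sult genes and the soluble Gst genes, a rule that uses no measured value. This gave 60 of the 24421 genes in the deposited table, with 20 Ugt, 19 Sult and 21 Gst genes. The livers came from 3 wild-type (WT) mice and 3 Pai-1 heterozygous mice, all C57BL/6 and 21 weeks of age by the labels, fed standard chow with free access to food. The heterozygous animals were bred from Pai-1-/- and WT mice, carry 1 null Pai-1 allele in the whole body, and were studied beside WT littermates. The study's text gives a slightly lower age and the J substrain. It describes the mice as male, while the labels state the sex for the WT samples. Liver mRNA was sequenced as single-end reads of 75 bases.

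The value available per gene was the authors' mean normalized count over all 6 libraries, which pools both genotypes. The per-animal columns of the count table carry numbers that match no sample label, so no column was given a genotype. No difference between WT and Pai-1 heterozygous livers is therefore given for any member, and no value has an SD or a test. Every level below describes these 6 livers together. The mean normalized counts of all genes added up to 30045982, and the totals of single libraries were not used here. A pooled mean cannot check the genotype labels. All 10 hepatocyte markers were present at 24370 or more, with Alb the highest gene of the table. The ranges were 25.8 to 1170 for 5 cholangiocyte markers, 327 to 2374 for 5 Kupffer cell markers, 205 to 1273 for 5 liver endothelial markers and 135 to 4160 for 5 stellate cell markers. The 3 skeletal muscle markers lay between 0.690 and 3.24, the 3 pancreas markers between 15.4 and 48.2, and the 4 intestine or stomach markers between 0.182 for Gkn1 and 3058 for Fabp2, a fatty acid binding protein. Their part in the members' levels was not tested. In whole liver, fewer cells of a type and less RNA per cell cannot be told apart.

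Phase II enzymes attach a polar group to drugs, hormones, bile acids and products of metabolism, so that these can leave the cell and be passed into bile or urine. UDP-glucuronosyltransferases (Ugt) sit in the membrane of the endoplasmic reticulum and transfer glucuronic acid from UDP-glucuronic acid. Sulfotransferases (Sult) of the cytosol transfer a sulfonate group from the activated donor PAPS. Glutathione S-transferases (Gst) join the tripeptide glutathione to electrophiles, and the liver is a main site of all of these reactions.

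Sequences are shown first for genes whose values depend on telling near-identical copies apart. The 8 Ugt1a genes listed in the table, on chromosome 1, each have a first exon of their own and are spliced to the same later exons. Their last 737 coding bases were identical, while 847 to 868 coding bases at the start of each belonged to that gene. Ugt1a8, which is annotated but not listed in the table, also shares 1239 windows of 75 bases with Ugt1a1. A read from the common end fits all 8 listed genes, as in the first 75 bases of that end. These are given here from the reference and not from the reads.
Ugt1a common coding end: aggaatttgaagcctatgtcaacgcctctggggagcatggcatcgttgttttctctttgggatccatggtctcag
Gstp1 and Gstp2, adjacent glutathione S-transferases of the pi class, differed at 12 of 630 coding bases (98.1% identical). The first 75 coding bases of both hold 6 of those differences, which are in capitals.
Gstp1: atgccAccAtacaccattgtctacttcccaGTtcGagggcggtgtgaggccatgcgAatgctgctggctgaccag
Gstp2: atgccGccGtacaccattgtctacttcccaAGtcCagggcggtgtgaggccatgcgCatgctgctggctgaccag

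The 250 bases before the RefSeq start site are shown for pairs of neighbours or near-identical genes that differed widely in level, and for the highest Gst gene. They were taken from RefSeq on build GRCm38.p6, are written 5′ to 3′ on the strand of the gene, and carry matches to either of 2 searched motifs in capitals. Ugt1a1 lies at chr1:88211709-88211958 on the plus strand and Ugt1a2 at chr1:88200361-88200610 on the plus strand. Ugt2b5 lies at chr5:87140341-87140590 on the minus strand and Ugt2b38 at chr5:87424204-87424453 on the minus strand. Sult1d1 lies at chr5:87569007-87569256 on the minus strand and Sult1e1 at chr5:87591612-87591861 on the minus strand. Gsta3 lies at chr1:21240335-21240584 on the plus strand.
Ugt1a1: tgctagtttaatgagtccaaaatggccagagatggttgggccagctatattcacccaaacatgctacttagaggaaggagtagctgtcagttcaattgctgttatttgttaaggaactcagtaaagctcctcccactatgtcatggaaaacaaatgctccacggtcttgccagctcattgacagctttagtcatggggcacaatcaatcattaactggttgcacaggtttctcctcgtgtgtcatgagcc
Ugt1a2: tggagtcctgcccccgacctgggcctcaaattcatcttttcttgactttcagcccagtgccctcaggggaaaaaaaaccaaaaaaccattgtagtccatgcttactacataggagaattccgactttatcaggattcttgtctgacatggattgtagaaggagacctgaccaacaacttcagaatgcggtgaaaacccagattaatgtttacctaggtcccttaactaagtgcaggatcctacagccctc
Ugt2b5: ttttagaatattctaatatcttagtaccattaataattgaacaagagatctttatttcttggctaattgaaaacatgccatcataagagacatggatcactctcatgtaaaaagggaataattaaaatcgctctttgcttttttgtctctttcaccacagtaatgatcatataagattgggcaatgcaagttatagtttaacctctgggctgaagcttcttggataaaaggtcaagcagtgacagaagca
Ugt2b38: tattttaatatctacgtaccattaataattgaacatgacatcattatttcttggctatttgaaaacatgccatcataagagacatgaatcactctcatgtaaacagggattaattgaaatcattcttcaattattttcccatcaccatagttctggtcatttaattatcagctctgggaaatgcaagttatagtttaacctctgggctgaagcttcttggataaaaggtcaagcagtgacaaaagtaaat
Sult1d1: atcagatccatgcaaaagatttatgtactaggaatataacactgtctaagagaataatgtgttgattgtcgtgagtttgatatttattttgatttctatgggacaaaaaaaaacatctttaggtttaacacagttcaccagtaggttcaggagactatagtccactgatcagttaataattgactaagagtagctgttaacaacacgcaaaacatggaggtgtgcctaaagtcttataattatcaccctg
Sult1e1: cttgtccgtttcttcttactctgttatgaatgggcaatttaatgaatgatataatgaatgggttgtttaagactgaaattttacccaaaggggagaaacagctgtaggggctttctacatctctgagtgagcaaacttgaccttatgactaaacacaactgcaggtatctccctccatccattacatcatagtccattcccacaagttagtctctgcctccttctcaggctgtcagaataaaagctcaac
Gsta3: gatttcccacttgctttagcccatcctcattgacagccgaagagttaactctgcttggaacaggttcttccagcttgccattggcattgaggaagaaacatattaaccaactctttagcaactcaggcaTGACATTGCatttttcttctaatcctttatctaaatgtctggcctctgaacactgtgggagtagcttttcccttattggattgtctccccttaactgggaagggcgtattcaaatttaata

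Of the 60 members, 44 (73.3%) had a mean normalized count above 10, the floor used here to mark genes measured with more than a few reads, against 53.1% of all genes. The other 16 members were at or under it, and 8 of those were listed at 0. A mean of 0 over 6 libraries allows a mean of up to 0.5, the value of 3 reads in all, for counting error only. In the other direction, 12 members exceeded 10000, among 392 genes of the table. The 60 members held 0.973% of all normalized counts. The Ugt family held 0.418%, the Gst family 0.403% and the Sult family 0.152%.

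Counts rise with transcript length, so ratios between genes were taken per kilobase (kb), of the longest coding transcript unless another length is named, and plain mean normalized counts and shares of them are given as counts. On the longest coding transcript, the order of the families was Gst, Ugt, Sult, whose summed levels were 91898, 53817 and 23929 per kb. These sums are not given here for the other lengths, which change the levels of single members. The families also differed in how evenly their counts were spread. The highest member held 18.3% of the Ugt counts, 30.4% of the Gst counts and 59.5% of the Sult counts. The 3 highest held 47.1% of the Ugt counts, 71.4% of the Gst counts and 95.9% of the Sult counts.

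**Figure D1:**
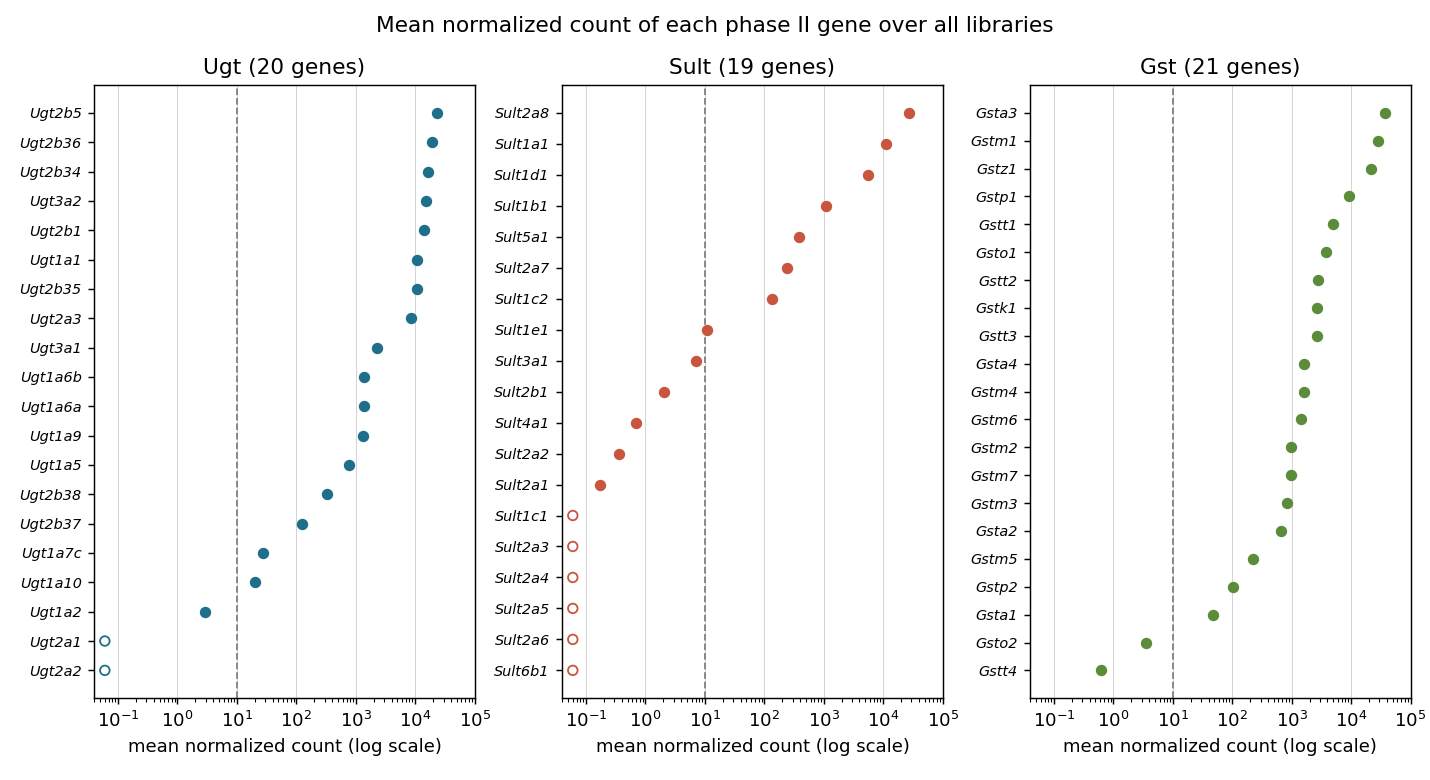
Mean normalized count over all 6 libraries (log scale, not scaled by length) of each member, in one panel per family, with a dashed line at the floor of 10, open circles for genes listed at 0 and no error given. The Ugt and Gst families have many members at high levels, while 11 of 19 Sult genes had a mean normalized count of 10 or less.

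Of the 20 Ugt genes, 17 were above a mean normalized count of 10, 12 were above 1000 and 7 were above 10000. The 7 Ugt2b genes, whose products glucuronidate steroids, bile acids and many drugs, held 66.8% of the family's counts. Ugt2b5 was the highest, with a mean normalized count of 22968, which was 12362 per kb. Ugt2b36 followed with 19403, or 10277 per kb, and lay above Ugt2b5 where the median coding transcript was the length. Ugt2b34 had 16745, Ugt2b1 had 13810 and Ugt2b35 had 10530. Per length Ugt2b1, at 5367 per kb, lay above Ugt2b34, at 3883 per kb, and Ugt2b35, at 3135 per kb. Ugt2b38 had 323, or 171 per kb, and Ugt2b37 had 125, or 65.8 per kb.

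The low Ugt2b37 and Ugt2b38 values concern genes that resemble Ugt2b5 closely. Ugt2b38 was identical to Ugt2b5 at 97.0% of 1590 coding bases and Ugt2b37 at 94.7%. Per kb, Ugt2b5 was 72.3 times Ugt2b38 and 188 times Ugt2b37. Of the 75-base windows of Ugt2b5, 507 also occur in Ugt2b38 and 114 in Ugt2b37, which together made 30.4% of its windows. With length taken only over windows that occur in no other gene of the table, the ratios were 74.9 and 253. That scale assumes that no read from a shared window was counted, and the rule by which the authors assigned such reads is not given in the sources used here. The 250 bases before the start were 81.5% identical between Ugt2b5 and Ugt2b38 over 260 aligned positions, and 73.0% identical between Ugt2b5 and Ugt2b37. Ugt2b36, with a level near that of Ugt2b5, was 60.2% identical to it there and 88.4% identical over the coding bases. Of the 274 aligned positions before those 2 starts, 48 were gaps. The same alignment gave 50.7% for Ugt1a1 and Ugt1a2, 49.8% for Ugt1a1 and Ugt1a9 and 51.4% for Sult2a8 and Sult2a6. It gave 52.8% for Gstm1 and Gstm4 and 78.5% for Gstp1 and Gstp2.

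The 8 Ugt1a genes together held 12.4% of the Ugt counts, and Ugt1a1, the enzyme that glucuronidates bilirubin, held 68.4% of the Ugt1a counts. These shares, and those of the other Ugt genes, depend on how reads from the common exons were counted. That rule is not given in the sources used here. Ugt1a1 had a mean normalized count of 10635, or 4782 per kb. Ugt1a6b (1395), Ugt1a6a (1386), enzymes of the phenol-conjugating UGT1A6 type, and Ugt1a9 (1327) came next. They lay between 603 and 606 per kb, and with no error given here their order was not read. Over windows in no other gene of the table, Ugt1a6b had 2545 per kb and Ugt1a9 1545 per kb, while Ugt1a6a has no such window. Ugt1a5 had 762, Ugt1a7c had 27.0, Ugt1a10 had 20.3 and Ugt1a2 had 2.96. The genes lie within 165 kb on chromosome 1 (88055388 to 88220002), and Ugt1a1 is the one nearest to the common exons, with Ugt1a2 beside it. Per kb, Ugt1a1 was 3568 times Ugt1a2. The ratio was 3092 over windows in no other gene of the table and 6185 over windows found in no other annotated gene.

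Of the windows of the Ugt1a genes, 59.4% to 100% occur in another gene, mostly through the common exons. For Ugt1a1 the share was 78.8%. Part of it came from Gm20528, an antisense gene that is not listed in the table and overlaps the locus. Ugt1a6a has no window of its own, since all 2223 of its windows also lie in the Ugt1a7c model of the annotation used here. The authors' values for these genes differed, at 1386 for Ugt1a6a and 27.0 for Ugt1a7c. Their annotation, and how they assigned reads that fit both genes, are not given in the sources used here. Ugt1a6a and Ugt1a6b differed at 26 of 1593 coding bases. Ugt1a2 carries the same 737 common coding bases as Ugt1a1 and had a mean of 2.96, so reads from the common end cannot have been added in full to every Ugt1a gene. With length taken over windows in no other gene of the table, Ugt1a1 had 11687 per kb and Ugt1a6b 2545, a ratio of 4.59 in place of 7.90. With windows found in any other annotated gene left out, Gm20528 included, Ugt1a1 had 23373 per kb and the ratio was 9.18.

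Both Ugt3a genes were measured well above the floor. Enzymes of this subfamily use other UDP-sugars than glucuronic acid. Ugt3a2 had a mean normalized count of 15190 and Ugt3a1 of 2236, and Ugt3a2 was 6.55 times Ugt3a1 per kb. Their coding bases were 93.2% identical, yet only 1.51% and 1.57% of their windows occur in another gene, and the ratio was 6.53 over their own windows and 3.79 with the median coding transcript. Among the 3 Ugt2a genes, Ugt2a3 had 8630. Ugt2a1, known from the olfactory epithelium, and Ugt2a2 were listed at 0. These last share 1700 windows with each other, so a 0 for one is not independent of a 0 for the other.

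**Figure D2:**
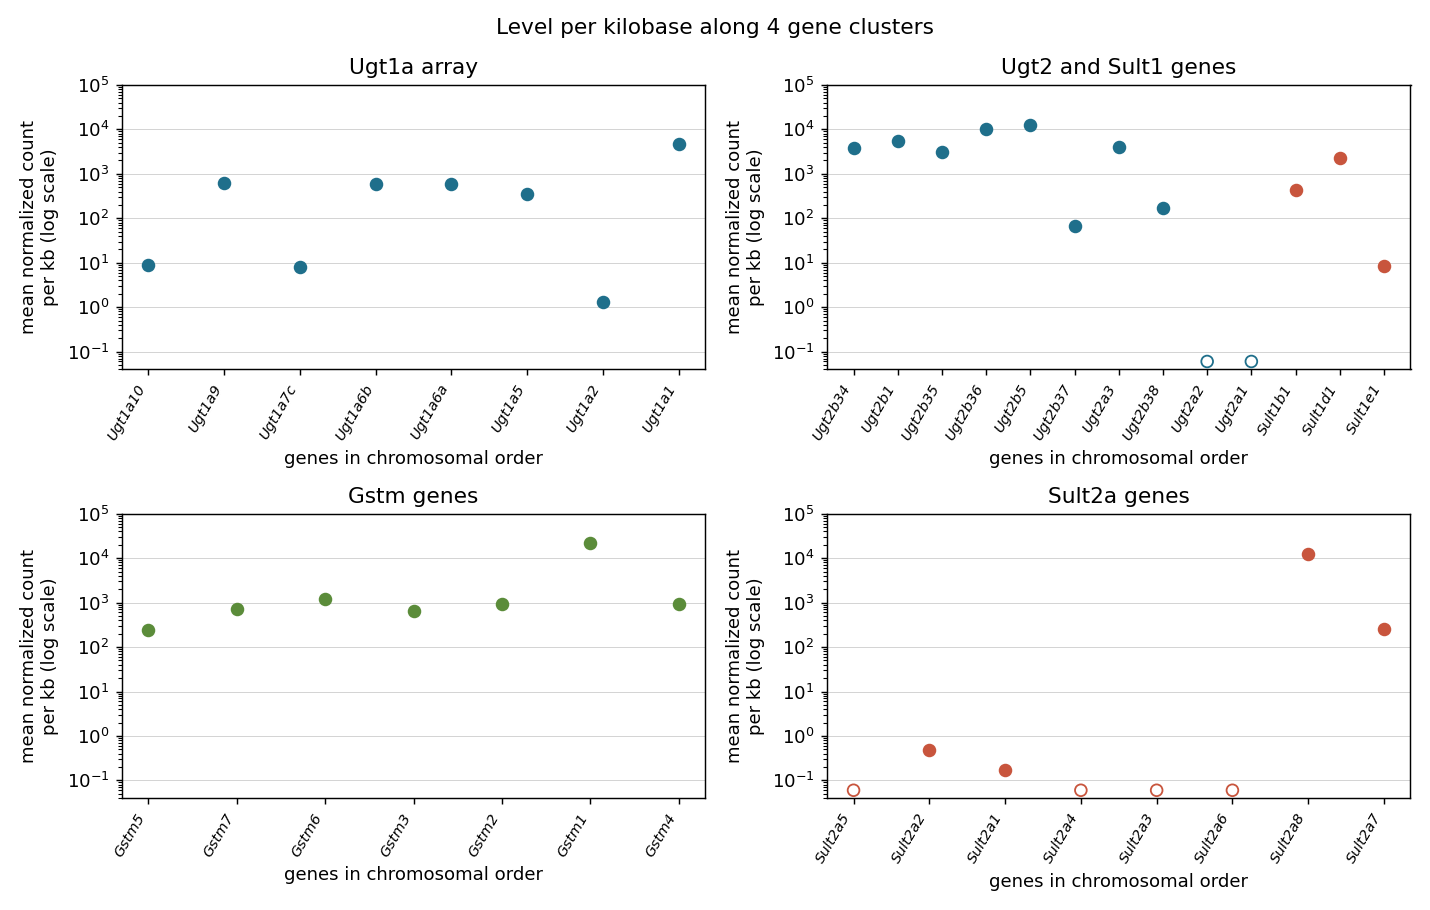
Mean normalized count per kilobase (log scale) of members in their order along the chromosome, in 4 gene clusters, with open circles at the lower edge for genes listed at 0 and no error given. Some neighbours differ by orders of magnitude, as for Ugt1a1 and Ugt1a2 (3568 times, with the count of Ugt1a2 under the floor). Others lie close, as for Ugt2b36 (10277 per kb) and Ugt2b5 (12362 per kb). The 7 Gstm genes are all above the floor.

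The Ugt2 genes share a stretch of 702 kb on chromosome 5 (86889767 to 87591594) with 3 sulfotransferases. Of these 13 genes 11 were above the floor, and their counts summed to 99255. In order along the chromosome, the first 5 genes, Ugt2b34, Ugt2b1, Ugt2b35, Ugt2b36 and Ugt2b5, were all above 10000. Beyond them came Ugt2b37 with 125, Ugt2a3 with 8630, Ugt2b38 with 323 and the pair listed at 0. Sult1b1, Sult1d1 and Sult1e1 closed the stretch with 1108, 5602 and 10.7.

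In the Sult family 8 of 19 genes were above the floor and 6 were listed at 0, and the median count was 2.02. Sult2a8, a mouse sulfotransferase of bile acids, had a mean normalized count of 27179, or 12683 per kb. Sult1a1, which sulfonates phenols, had 11040, or 8058 per kb. Sult1d1, known for catecholamines and other small phenols, had 5602, or 2315 per kb. Per kb, Sult2a8 was 1.57 times Sult1a1, and Sult1a1 was 3.48 times Sult1d1. The first of these ratios was 1.13 with the union of exons as length and 4.31 with the median coding transcript. Sult1b1 had 1108, Sult5a1 had 380 and Sult1c2 had 133. Sult1e1, the estrogen sulfotransferase, was just above the floor at 10.7, and Sult3a1 just under it at 7.18.

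The 8 Sult2a genes span 870 kb on chromosome 7 (13623967 to 14494230), and 2 of them were above the floor. Sult2a8 alone held 99.1% of all Sult2 counts. Sult2a7, its neighbour, had 245, and Sult2a8 was 48.8 times Sult2a7 per kb, and 133 times with the median coding transcript as length. The other 6 were at or close to 0. Sult2a2 had a mean of 0.355 and Sult2a1 of 0.172, while Sult2a3, Sult2a4, Sult2a5 and Sult2a6 were listed at 0. These 6 genes had 1.69% to 47.2% of their windows in another gene and 352 to 927 windows of their own. Coding identity is given here only for pairs without Sult2a2. Among those pairs Sult2a5 and Sult2a1 were nearest, at 94.9% of 855 coding bases. Sult2a2 had 173 of its 667 windows in Sult2a1 and 171 in Sult2a5. No window of Sult2a8 or Sult2a7 occurs in another gene. Sult2b1, which sulfonates cholesterol, had 2.02, and Sult4a1, a member known from the brain, had 0.688. Sult1c1 and Sult6b1 were listed at 0.

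Of the 21 Gst genes, 19 were above the floor, 12 were above 1000 and none was listed at 0. Gsta3, of the alpha class and known in mice for conjugating the epoxide of aflatoxin B1, had a mean normalized count of 36794, or 25253 per kb. Gstm1, of the mu class, had 28311, or 21964 per kb, and lay above Gsta3 where the union of exons was the length. Gstz1, which isomerises maleylacetoacetate in the breakdown of tyrosine, had 21410, or 12929 per kb. Gstp1 of the pi class had 9264, or 11284 per kb. Gstt1 of the theta class had 4905, or 4439 per kb. By class, the alpha genes held 32.3% of the family's counts, the mu genes 28.4%, the zeta gene 17.7%, the theta genes 8.53%, the pi genes 7.73%, the omega genes 3.09% and the kappa gene 2.24%.

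Gsta3 held 94.0% of the alpha counts, Gstm1 82.3% of the mu counts and Gstp1 98.9% of the pi counts. In the theta class Gstt1 had 4439 per kb, Gstt3 1433 per kb and Gstt2 1213 per kb, while Gstt4 had a mean normalized count of 0.632. Per kb, Gsta3 was 15.1 times Gsta4, the enzyme known for conjugating 4-hydroxynonenal, and 6.55 times with the union of exons. The 7 mu genes, which lie within 149 kb on chromosome 3 (107895821 to 108044894), were all above the floor, from Gstm5 at 227 to Gstm1. Per kb, Gstm1 was 91.4 times Gstm5 and 18.3 times Gstm6, the next highest gene of the class on that scale. Gsto1, an omega class enzyme that reduces dehydroascorbate, had 3733, and its neighbour Gsto2 had 3.57.

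Shared sequence touched 4 Gst values in particular. Gstp1 had 57.7% of its windows in another gene and Gstp2 68.2%, with 431 windows common to both. Per kb, Gstp1 was 88.3 times Gstp2, 84.1 times over windows in no other gene of the table and 53.3 times with the median coding transcript. Over windows in no other gene of the table Gstp1 had 29318 per kb, above Gsta3 with 26604 and Gstm1 with 24726. The order of these 3 genes therefore depends on how shared reads were counted. Gsta1 had 86.3% of its windows in another gene, of which 610 lie in Gm3776, and Gsta2 had 46.9%. Gsta2 was 14.0 times Gsta1 per kb, and 3.63 times over their own windows. For Gstz1, 465 exonic bases overlap Pomt2 on the other strand, which had a mean of 719. Whether reads were counted by strand is not given in the sources used here.

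**Figure D3:**
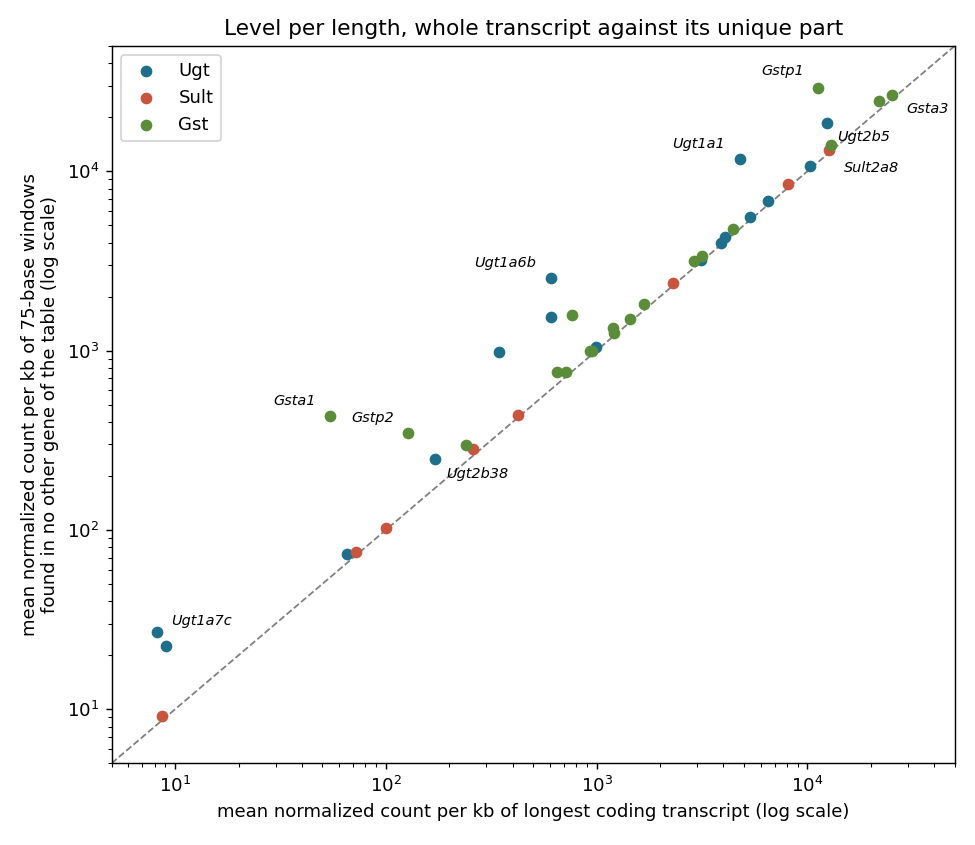
Mean normalized count per kilobase of the longest coding transcript against the same count per kilobase of 75-base windows found in no other gene of the table (both axes log scale), for members above the floor and with no error given. Every point lies above the dashed line of equality, since windows are fewer than bases. The points farthest from it, such as Gsta1, Ugt1a6b and Ugt1a7c, are members with much shared sequence. Ugt1a6a has no point because it has no window of its own.

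Set against all 23334 genes with a matched length, 8 members of the 3 families were among the highest 250 per kb. They were Gsta3 (rank 74), Gstm1 (87), Gstz1 (147), Sult2a8 (149), Ugt2b5 (154), Gstp1 (168), Ugt2b36 (180) and Sult1a1 (226). Ugt1a1 ranked 396, Gstt1 421 and Sult1d1 777.

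The promoters were searched on both strands for TGACNNNGC, the core of the antioxidant response element, and for TATAAA, the TATA box. RefSeq promoters were found for 52 members. For each member 1 start was used, the RefSeq start nearest to the GENCODE gene start, whereas the RefSeq background takes in every start. That start lay 25057 bases from the GENCODE one for Sult2b1, 8643 for Gsta2, 3802 for Gstp2 and 2941 for Ugt3a1. Gsta2 and Ugt3a1 are among the TATAAA matches below. TGACNNNGC was found in 2 of 19 Gst promoters (10.5%), those of Gsta3 and Gstm5, and in 0 of 18 Ugt and 0 of 15 Sult promoters. That made 3.85% of the 52 member promoters, against 10.2% of all RefSeq promoters. TATAAA was found in 3 of 18 Ugt promoters (16.7%), 4 of 15 Sult promoters (26.7%) and 2 of 19 Gst promoters (10.5%), against 12.4% of 32851 RefSeq promoters. Of members above 10000 it was in 1 of 11 promoters, and of members at or under 10 in 5 of 13. These matches are letters in a window and no binding was measured.

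For the other genes of the pathway too, the value is the mean over both genotypes. All 9 genes of cofactor supply were above the floor. Ugp2 (10827) and Ugdh (7041) make UDP-glucose and UDP-glucuronic acid. For PAPS, Papss2 had 6908 and Papss1 had 295. For glutathione, Gclc had 8210, Gclm 5037 and Gss 1884. Slc35d1 (3105) and Slc35b2 (1224) carry UDP-sugars and PAPS across membranes.

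Of 17 other conjugating enzymes, 15 were above the floor. Mgst1, a microsomal glutathione transferase unrelated in sequence to the soluble Gst genes, had a mean normalized count of 114499, and per kb of the longest coding transcript, the only length used for it, it was 3.89 times Gsta3 and 4.47 times Gstm1. Mgst2 had 4.09, and Ugt8a, which makes galactosylceramide, had 6.76. Baat, which joins bile acids to amino acids, had 11173. Among the 5 exporters listed, Abcc3 had 13568, Abcc2 had 10114 and Abcg2 had 3601, while Abcb1a had 186 and Abcc4 had 156. All 9 regulators were above the floor, among them Hnf4a at 24370, Ppara at 9756, Nr1i3 (CAR) at 6692, Nr1h4 (FXR) at 5636, Nr1i2 (PXR) at 2771, Ahr at 2135, Nfe2l2 (NRF2) at 2082 and Keap1 at 1716. Of the hydrolases, the epoxide hydrolases Ephx2 and Ephx1 had 43473 and 14762, and Gusb, which removes glucuronic acid, had 1190.

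**Figure D4:**
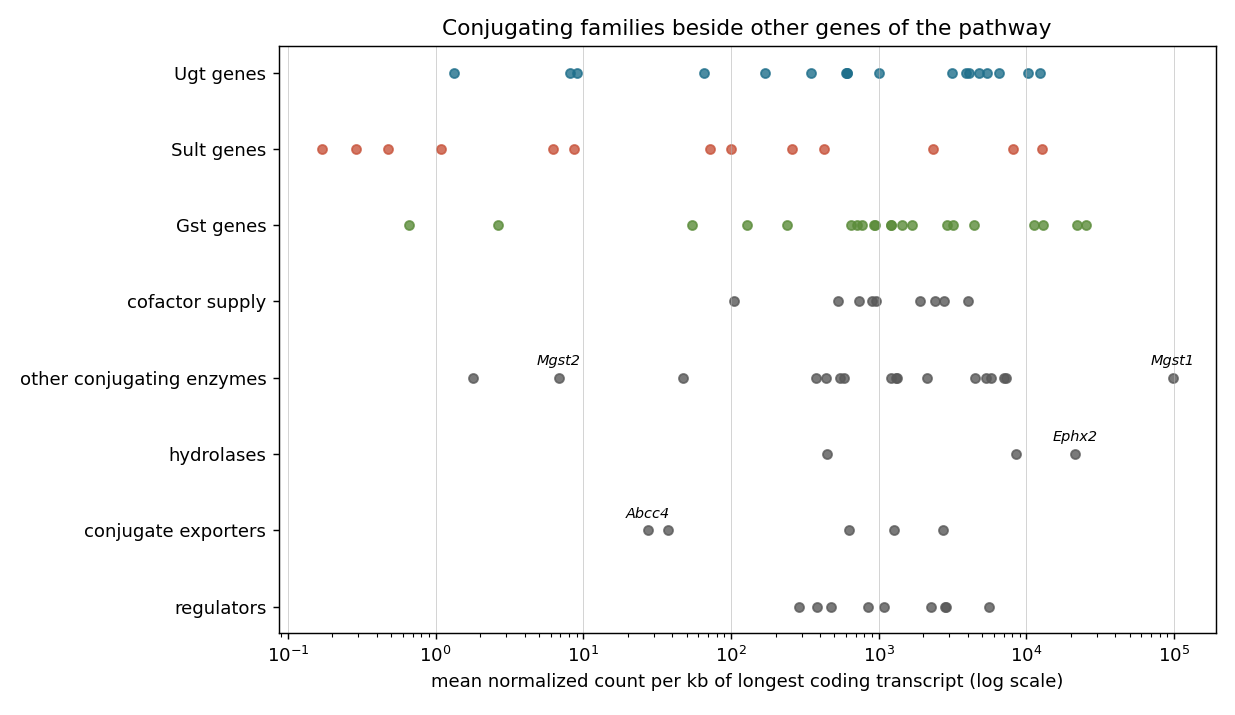
Mean normalized count per kilobase (log scale) of the members, by family, and of the other genes of the conjugation pathway, by role, as means over all 6 libraries with no error given and without the 8 members listed at 0. Mgst1 lies above every member, at 3.89 times Gsta3.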

How the data were processed

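Liver mRNA of 3 WT and 3 Pai-1 heterozygous mice was sequenced as 75-base single-end reads. Per the study's methods and processing notes, the authors aligned reads to mm10 with STAR and ran DESeq2 in the RNA Express application. HOMER is named too, with no role stated. Versions, annotation, counting rule and strand setting are not given in the sources used here. The 1 column used is a signal from a table the authors deposited, namely each gene's size-factor-normalized count averaged over the libraries of both genotypes. The same table holds the authors' log2 fold changes, standard errors, test statistics, p-values and adjusted p-values for the genotypes, and none was used. A second deposited table holds whole-number counts, and 6 columns of single animals in it were left out since their headings match no label, so the planned edgeR test could not be run.

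Members and gene lists were chosen with earlier results of these data known. Symbols were matched to GENCODE M21 (GRCm38, the mm10 build), which matched all 60 members and 95.5% of all genes. Levels were divided by the length of the longest coding transcript. Windows of 75 bases were searched in all annotated transcripts, on both strands and with exact matches, and the search was tested on simulated data. Named members were the 5 highest per family, those sharing sequence with a copy and examples at or under a floor of 10. Further members were named after their values were seen, to describe clusters and classes. Python 3.11.15, pandas 2.3.3, NumPy 2.4.6 and Matplotlib 3.10.9 were used. Same-named annotated genes not listed in the table (Gstp3, Sult3a2, Sult6b2 and Ugt1a8) were not analysed here. Promoters were not used for Sult2a7, Gstt2, Sult2a2, Gsta4, Ugt1a6b, Sult4a1, Sult2a1 and Ugt3a2. Sts was not analysed here. Some genes of the lists are not reported here.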

Additional observations from a re-analysis of the deposited data

How the results depend on the processing

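No paired analysis was possible because the count columns carry no sample name, genotype or replicate number. For the same reason the planned edgeR test, DESeq2 with its size factors, the unfiltered fit and the fits leaving out each mouse were not run. Depth per library and the spread over animals were not used here, because those columns match no sample, so no value has an error.

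The counts of members above the floor stayed within 1.5 times at floors of 1 and 100 (Ugt 18 and 15, Sult 10 and 7, Gst 20 and 18). Leaving out genes at or under the floor moved no share by more than its counting interval. Per kilobase, the share of the highest member went from 18.3% to 23.0% for Ugt, from 59.5% to 53.0% for Sult and from 30.4% to 27.5% for Gst. The share of the 3 highest went to 54.2%, 96.4% and 65.4%. Without the 10 highest genes of the table, the families held 0.502%, 0.183% and 0.484% of all counts. With 50-base windows, 1 Sult gene in place of 0 and 4 Gst genes in place of 3 had at least 50% of their windows in another gene. The Ugt count stayed at 10.

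The length used changed the per-kilobase share of the highest member, in the order Ugt, Sult, Gst, to 24.3%, 44.4% and 37.1% with the union of exons and to 34.5%, 75.7% and 31.9% with the median coding transcript. It also changed which gene led. The union put Gstm1 (19220 per kb) above Gsta3 (8470), and the median put Ugt2b36 (23720) above Ugt2b5 (12362). Per kb, Gsta3 over Gstm1 was 1.15 times and 0.441 with the union, and Ugt2b5 over Ugt2b36 was 1.20 times and 0.521 with the median. Sult2a8, Sult1a1 and Sult1d1 kept their order on each of the scales tried.

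Scaling by windows unique to a gene was chosen after seeing the data, in 2 forms. The form tried first left out windows found in any other annotated gene, and gave 28.2%, 51.9% and 24.2%. It put Ugt1a1 (23373) above Ugt2b5 (18508). The form used in the text was added once those values had been seen, because Gm20528, which is not listed in the table, had taken windows from Ugt1a1. It left out only windows found in other genes of the table, gave 26.0%, 52.6% and 24.8%, and put Ugt2b5 above Ugt1a1 (11687). Both put Gstp1 first among Gst genes, and they ordered Gsta3 and Gstm1 differently.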
